A study of Sus scrofa with 20 samples.

Results

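The neuronal A-type potassium channel complex was described in amygdala samples of pigs with different coping behavior. Its 9 genes were the calcium-binding subunits KCNIP1, KCNIP2, KCNIP3 and KCNIP4, the pore-forming subunits KCND1, KCND2 and KCND3, and the membrane-spanning auxiliary subunits DPP6 and DPP10. All probe sets that the platform annotation names for these genes were taken, which gave 22 of the 47845 probe sets in the table, for 9 of 13755 named genes. KCNIP3 was selected on its measured HR minus LR difference on these arrays, and the list was built around it. The difference of KCNIP3 is therefore given as a description without a test, while the other 8 genes were listed as its partners in the channel.

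The high-reactive (HR) group held 10 and the low-reactive (LR) group 10 German Landrace pigs at adult stage, with 1 amygdala RNA sample and 1 Affymetrix Snowball array for each animal. The labels name no treatment, time or genetic alteration. The animals were selected at both extremes of struggling in an early-life restraint test and by haplotype at a coping-associated chromosomal region, so behavior and haplotype cannot be told apart. Whole amygdala with its sub-nuclei was sampled, and each value is a log2 expression value of one probe set. Differences are given as HR minus LR on the log2 scale.

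A-type potassium currents switch on quickly below the firing threshold and inactivate quickly, and in dendrites they delay firing and dampen incoming signals. KCND proteins form the pore, KCNIP proteins bind its inner end and tie its surface number and gating to calcium, and DPP6 and DPP10, relatives of a peptidase without peptidase activity, speed its opening and closing. KCNIP3 is also known as calsenilin, for its binding to presenilins, and as DREAM, a calcium-regulated repressor of transcription described for the prodynorphin gene.

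Facts of the whole array set bear on all values below. Array medians lay between 5.14 and 5.22, and the mean of 69 antigenomic background probe sets, which match no pig gene, lay between 3.98 and 4.37 in HR and between 3.71 and 4.22 in LR. LR replicate 3 stood apart, as its correlation with each other array had a median of 0.876, against at least 0.958 for every other array, and the difference of each main probe set or list gene named below that it moved by over 1.5 times is also given without it. Animal numbers in the labels were higher in 9 of 10 HR animals than in any LR animal, so animal number and group were largely confounded. Of the neuron markers, 4 of 6 were on the array and SNAP25, SYT1 and STMN2 exceeded the 95th percentile of the background probe sets on all arrays, whereas RBFOX3 did not. The mean over these 4 markers ranged from 10.005 to 10.5 in HR and from 10.2 to 10.9 in LR, and that over 4 excitatory neuron markers from 9.86 to 10.2 in HR and from 9.24 to 10.02 in LR, with LR replicate 3 at 10.9 and 9.24. The choroid plexus markers, 4 of 5 on the array, ranged in mean from 6.69 to 8.73 in HR and from 6.56 to 8.29 in LR, and none of them exceeded the 95th percentile on all arrays. In samples of whole tissue, fewer cells of a type and less RNA per cell cannot be told apart.

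Of the calcium-binding subunits, KCNIP3 was higher and KCNIP4 lower in mean in HR, and KCNIP1 and KCNIP2 were nearly level. KCNIP3, with 1 probe set, had a lowest value of 10.6, a median of 11.1 and a highest value of 11.4 in HR, against 10.3, 10.5 and 10.9 in LR. The ranges overlapped, although 8 of the 10 HR animals lay above the highest LR value and all 10 above the LR median. The HR mean of 11.08 ± 0.23 stood against an LR mean of 10.6 ± 0.17 (SD, n = 10 each), a difference of 0.48 ± 0.09 (SE), or 1.397-fold. The lowest HR value, 10.6, belonged to HR replicate 1, the only HR animal numbered within the LR range. That animal also had the lowest background mean in HR, 3.98, and without it the difference was 0.54. Fitted together with background, the difference of KCNIP3 was 0.40, fitted together with animal number it was 0.36, and leaving out LR replicate 3 gave 0.45. The part of background and animal number in this difference was not tested.

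KCNIP4, whose variants can slow inactivation of the channel, had 1 probe set that ran the other way. Its lowest, median and highest values were 5.50, 6.13 and 6.75 in HR and 6.34, 6.47 and 7.49 in LR. The groups overlapped, with 6 HR animals below the lowest LR value and 2 LR animals, replicates 2 and 3, above the highest HR value. The HR mean of 6.20 ± 0.35 stood against an LR mean of 6.63 ± 0.37 (SD, n = 10 each). The difference of -0.43 ± 0.15 (SE) had an unadjusted limma p of 0.00796 and did not pass at a limma adjusted p of 0.157. Leaving out LR replicate 3 gave -0.34, and the background covariate gave -0.22. KCNIP4 exceeded the 95th percentile of the background probe sets on 1 array, although it was above the background mean on 20.

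KCNIP1, which raises the surface number of KCND channels and is known from inhibitory neurons, was nearly level in mean between the groups. On its brighter probe set it ranged from 9.55 over a median of 9.70 to 9.85 in HR and from 9.34 over 9.65 to 9.88 in LR. The SD there was 0.09 in HR and 0.16 in LR. The difference was 0.09 ± 0.07 (SE), within an interval of -0.05 to 0.23 (95%), at a limma adjusted p of 0.328, and the dimmer probe set gave 0.03. With the background covariate the brighter probe set gave 0.02. KCNIP2, the main subunit of its family in heart muscle and also made in forebrain neurons, ranged from 9.06 over 9.40 to 9.52 in HR and from 9.07 over 9.44 to 9.53 in LR on the brightest of 3 probe sets. The difference was -0.05 ± 0.07 (SE), or -0.08 without LR replicate 3, whereas the other two probe sets gave 0.11 and 0.10, so KCNIP2 had no settled direction. All 3 intervals spanned 0, and the lowest array in LR was replicate 3 on each of them.

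**Figure D1:**
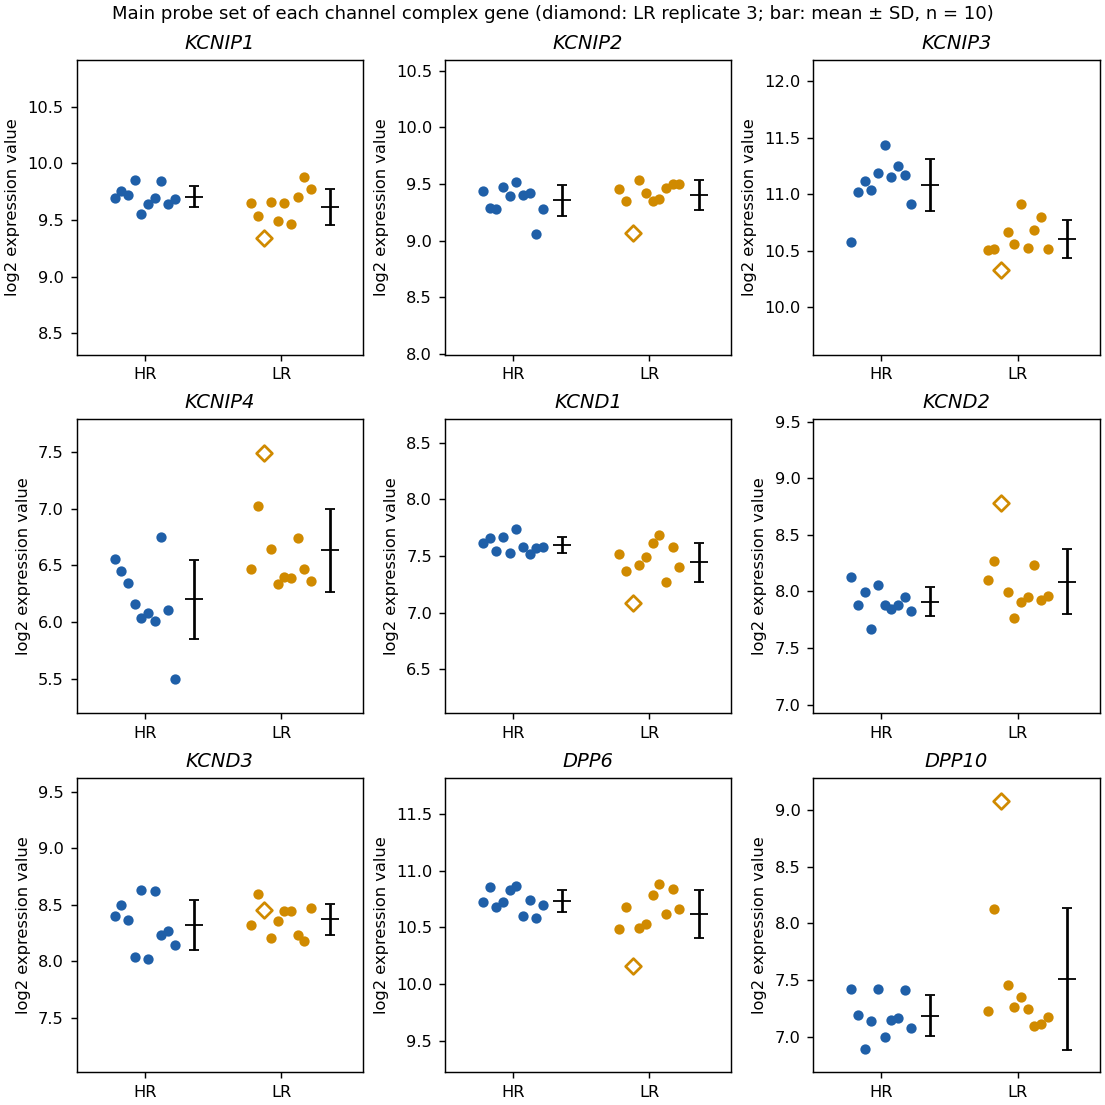
Log2 expression values (y axis) of the main probe set of each of the 9 genes, 1 point per array, with HR left of LR and the mean ± SD (n = 10 each) beside the points; every panel spans the same range of log2 units. KCNIP3 lay between 10.6 and 11.4 in HR and between 10.3 and 10.9 in LR, and LR replicate 3 (open diamond) was the highest LR array for KCNIP4, KCND2 and DPP10.

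Among the pore-forming subunits, KCND1 was higher in mean and KCND2 lower in mean in HR, and none passed. KCND1, with 1 probe set, ranged from 7.52 over a median of 7.58 to 7.74 in HR and from 7.09 over 7.46 to 7.68 in LR. It exceeded the 95th percentile of the background probe sets on 0 arrays, although it was above the background mean on 20. All 10 HR animals lay above the LR median, but 3 of the 10 LR animals lay within the HR range. The SD was 0.07 in HR and 0.18 in LR, a ratio of LR to HR of 2.50. In limma the difference, 0.16 ± 0.07 (SE), gave an unadjusted p of 0.0291 and an adjusted p of 0.170. Leaving out LR replicate 3 gave 0.12, and the background covariate gave 0.11.

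KCND2, the main pore subunit of dendritic A-type channels in hippocampal neurons of rodents, was measured by 4 probe sets. The brightest ranged from 7.67 over 7.88 to 8.13 in HR and from 7.76 over 7.98 to 8.78 in LR, where LR replicate 3 held the top value. This probe set exceeded the 95th percentile of the background probe sets on 8 of 20 arrays. Its difference was -0.18 ± 0.10 (SE) at a limma adjusted p of 0.232, and the second probe set gave -0.09 ± 0.07 (SE). Without LR replicate 3 the difference of the brightest was -0.10, and with the background covariate it was -0.04. The remaining 2 lay below the background mean on 19 of 20 arrays, all but LR replicate 3, and were not tested, so no direction is read from them. KCND3, a pore subunit that neurons share with heart muscle, ranged from 8.02 over 8.32 to 8.63 in HR and from 8.18 over 8.40 to 8.60 in LR on its brightest probe set. Its 3 probe sets disagreed, with differences of -0.05, 0.04 and -0.24, and the last, the dimmest, had an unadjusted limma p of 0.0502 and a limma adjusted p of 0.190. The spread of the brightest probe set was larger in HR, at an SD of 0.22, than in LR, at 0.13.

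Of the auxiliary subunits, DPP6 was slightly higher in mean in HR on all 3 probe sets, and DPP10 was lower in mean in HR on both tested probe sets, without passing. The brightest DPP6 probe set ranged from 10.6 over 10.7 to 10.9 in HR and from 10.2 over 10.6 to 10.9 in LR. Its differences were 0.12, 0.13 and 0.12, each with an SE of 0.07 or 0.08, and the limma adjusted p values lay between 0.223 and 0.301. The difference of the brightest was 0.07 with the background covariate and also 0.07 when LR replicate 3 was left out. On the second probe set all 10 HR animals lay above the LR median, yet the highest HR value, 9.42, lay below the highest LR value, 9.43.

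DPP10 showed the widest spread in LR among the main probe sets of the 9 genes. Its brightest probe set ranged from 6.89 over 7.15 to 7.42 in HR and from 7.09 over 7.25 to 9.08 in LR. That probe set exceeded the 95th percentile of the background probe sets on 2 of 20 arrays, both in LR. LR replicate 3 had 9.08 and LR replicate 2 had 8.12, and 3 of the 10 LR arrays lay above the highest HR value. The SD was 0.18 in HR and 0.63 in LR, or 0.32 in LR without replicate 3. The limma fit gave -0.33 ± 0.19 (SE) at an adjusted p of 0.242, and the difference was -0.15 without LR replicate 3 and turned to 0.01 once background was a covariate. Of its other probe sets, 1 was tested and gave -0.05, and 2 lay below the filter.

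**Figure D2:**
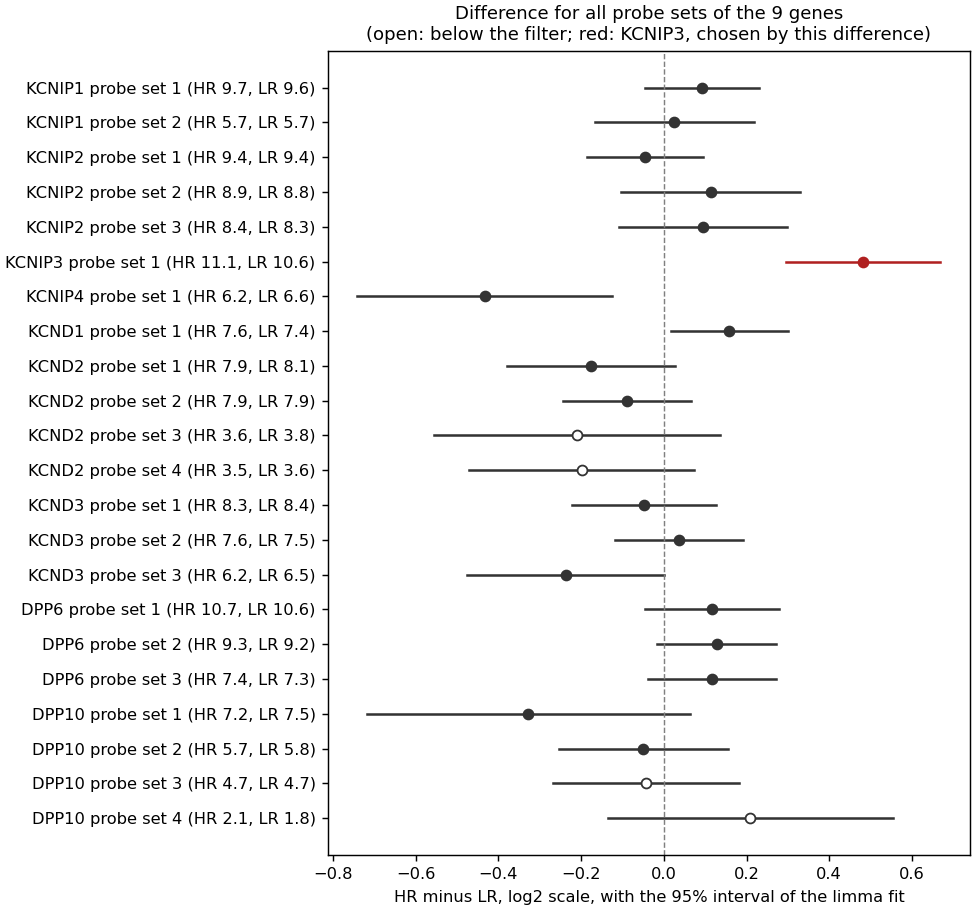
Difference HR minus LR (x axis, log2 scale) with the 95% interval of the limma fit for all 22 probe sets (rows, with group means). KCNIP3 at 0.48 is shown in red because this difference chose it, open points lay below the filter, and of the other filled points only KCNIP4 at -0.43 and KCND1 at 0.16 have intervals that do not span 0.

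Counted together without KCNIP3, for which no test is given, no probe set of the other 8 genes passed in limma. Of their 17 tested probe sets, 0 had an adjusted p under 0.05, against 0.00839% of the 23828 probe sets tested on the array. At an unadjusted p under 0.05 there were 2, KCND1 higher and KCNIP4 lower in HR, or 11.8%, against 26.4% of all probe sets tested (12.3% higher and 14% lower in HR). The share was thus below that of the array as a whole. Without LR replicate 3 there were also 2, against 18.5% of all probe sets, with the background covariate 0, against 4.26%, and with the animal number covariate 0, against 3.89%. In mean, 9 of the 17 were higher and 8 lower in HR, with a median difference of 0.03, against 0.05 over all probe sets tested. The groups overlapped on all 22 probe sets of the complex, and 18 of these had the larger SD in LR, or 13 without LR replicate 3. The shares over the whole array were not counted, so neither count is read as a trait of these genes.

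Within the groups, the next question was whether the subunits varied together from animal to animal. For this, deviations from the group means were used, which hold nothing of the HR and LR contrast. Of 36 pairs of main probe sets, 9 had an adjusted p under 0.05 for Pearson's r, 5 of them positive, but 0 did for Spearman's rho. For Pearson's r, 0 did without LR replicate 3 and 6 did with background removed, 2 of them positive. The share over pairs of other genes was not counted, so these counts are not read as a trait of the complex. The strongest positive pair was KCND2 with DPP10, at r = 0.808 (permutation p = 0.00472, adjusted p = 0.0371 over 36 pairs) and rho = 0.468 (permutation p = 0.0506, adjusted p = 0.228). Its r was 0.494 without the 2 arrays farthest in KCND2, 0.454 without LR replicate 3 and 0.612 with background removed. KCND2 also went with KCNIP4, at r = 0.717 (permutation p = 0.00119, adjusted p = 0.0283) and rho = 0.699 (permutation p = 0.00145, adjusted p = 0.0522). That r was 0.597 without the 2 arrays farthest in KCNIP4, 0.507 without LR replicate 3 and 0.505 with background removed.

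KCND1 and KCND2 deviated in opposite directions, at r = -0.765 (permutation p = 0.00159, adjusted p = 0.0283) and rho = -0.662 (permutation p = 0.00417, adjusted p = 0.0751). This was -0.556 without the 2 arrays farthest in KCND1, -0.534 without LR replicate 3 and -0.731 with background removed. KCND1 went with DPP6 at r = 0.743 (permutation p = 0.00236, adjusted p = 0.0283) and rho = 0.426 (permutation p = 0.0840, adjusted p = 0.303), with r = 0.400 without the 2 arrays farthest in KCND1, 0.532 without LR replicate 3 and 0.707 with background removed. These 4 pairs kept their sign within each group. The r was 0.463 in HR and 0.861 in LR for KCND2 with DPP10, 0.305 in HR and 0.953 in LR for KCND2 with KCNIP4, -0.381 in HR and -0.834 in LR for KCND1 with KCND2, and 0.445 in HR and 0.799 in LR for KCND1 with DPP6. Without LR replicate 3 the LR values were, in the same order, 0.457, 0.852, -0.620 and 0.570. KCNIP3 had no pair that passed, with r between -0.415 for DPP10 and 0.399 for DPP6, and with background removed its r values lay between -0.154 and 0.297.

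**Figure D3:**
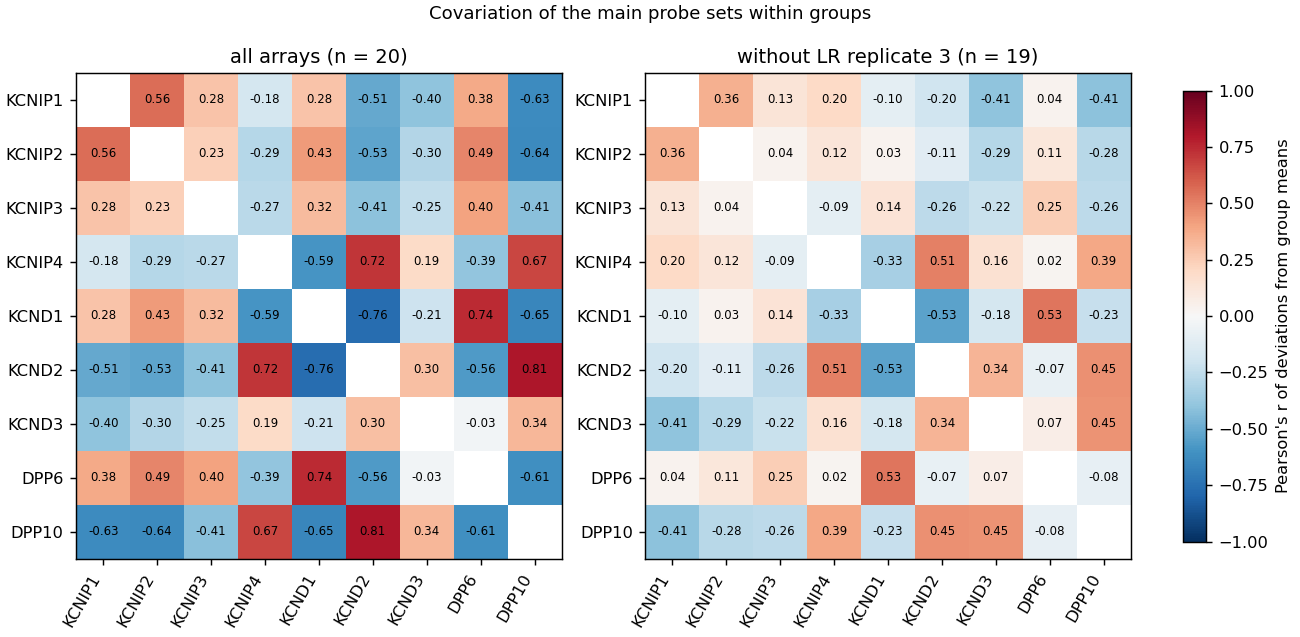
Pearson's r between the deviations from group means of the main probe sets of the 9 genes, over all 20 arrays (left) and over 19 arrays without LR replicate 3 (right), on a colour scale from -1 to 1. The values among KCNIP4, KCND1, KCND2, DPP6 and DPP10, positive for some pairs and negative for others, are paler on the right than on the left. There KCND2 with DPP10 was 0.45 (0.81 with all arrays) and KCND1 with KCND2 was -0.53 (-0.76 with all arrays).

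Probe sets of one gene were compared in the same way. Over all arrays, the 22 pairs of probe sets within a gene all correlated positively, 13 of them with an adjusted p under 0.05 for Pearson's r (permutation test) and 3 for Spearman's rho. These pairs include the KCND2 and DPP10 probe sets below the filter. Not all stayed positive without the 2 arrays farthest in one probe set of the pair. There r ran from -0.312 for DPP10 probe sets 3 and 4 by brightness (0.634 with all arrays) to 0.685 for a KCNIP2 pair. KCNIP2 had r from 0.698 to 0.813 among its 3 probe sets and KCND3 from 0.609 to 0.688. DPP6 probe sets 1 and 3 by brightness had r = 0.350 (permutation p = 0.218) and rho = 0.00150 (permutation p = 0.998), although their group differences were alike. Of the 22 probe sets, 3 (KCNIP2 2, KCND3 1) carry the suffix used for probe sets shared by several transcripts. The annotation gives no isoform for any of them.

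Array background was set beside these values, as 6 of the 8 genes other than KCNIP3 followed it over all arrays (Pearson's r, permutation test, adjusted over 9 genes). By Spearman's rho 3 of the 8 did. The largest component of variation among the tested probe sets held 49.1% of the variance, with r = 0.894 to background. The share of all genes that followed background was not counted, so these counts are not read as a trait of the complex. For KCNIP3 the value over all arrays holds the group difference on which it was selected, and is given without a test, at r = 0.605 and rho = 0.531. Within groups its r was 0.458 in HR (permutation p = 0.185) and 0.498 in LR (permutation p = 0.149), with rho of 0.0788 in HR and 0.224 in LR. Without HR replicate 4 and LR replicate 3, whose background lay farthest from the median, it was 0.504. KCNIP4 fell with background, at r = -0.721 (permutation p = 0.00059, adjusted p = 0.00265) and rho = -0.480 (permutation p = 0.0335, adjusted p = 0.0603), with r = -0.451 in HR and -0.792 in LR. Its rho was -0.321 in HR and -0.212 in LR. Without LR replicate 3 its r was -0.530 (permutation test, adjusted p = 0.0547). Without the 2 arrays farthest in background its r was -0.522 (permutation test, adjusted p = 0.0742), so KCNIP4 passed in neither setting.

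DPP10 followed background most closely, at r = -0.802 (permutation p = 9e-05, adjusted p = 0.00081) and rho = -0.762 (permutation p = 0.00014, adjusted p = 0.00126), with r = -0.475 in HR and -0.938 in LR and r = -0.602 without the 2 arrays farthest in background. KCND3, at r = -0.607 (permutation p = 0.00378, adjusted p = 0.00567) and rho = -0.650 (permutation p = 0.00248, adjusted p = 0.0112), was the other gene that passed without LR replicate 3, at -0.697, and its r was -0.768 in HR, -0.474 in LR and -0.638 without the 2 arrays farthest in background. KCNIP2 and DPP6 did not pass over all arrays, and both had a negative r in HR and a positive r in LR.

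**Figure D4:**
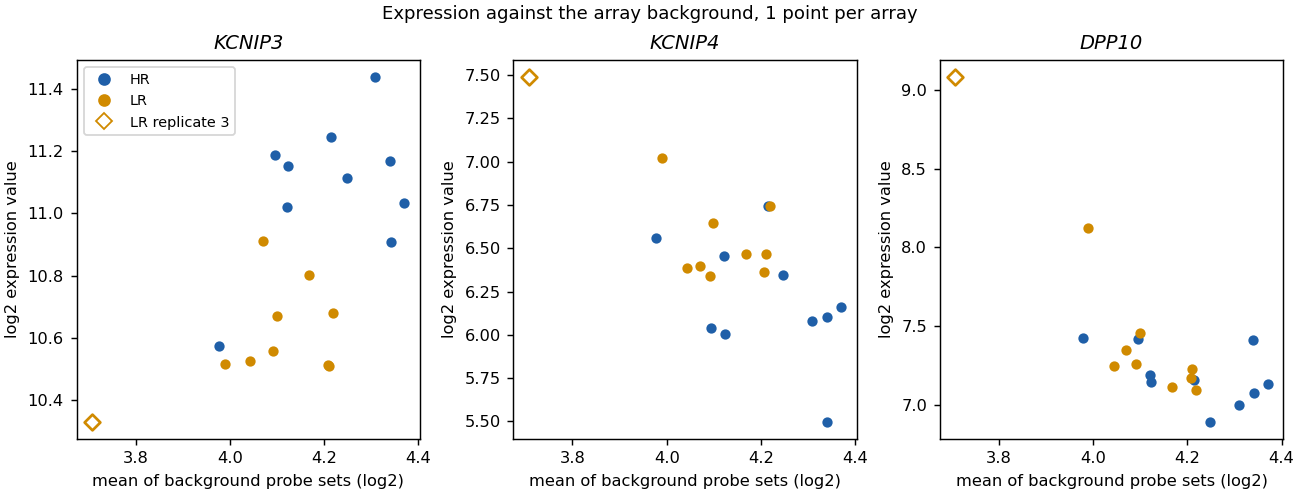
Log2 expression value (y axis) of KCNIP3, KCNIP4 and DPP10 against the mean of the antigenomic background probe sets of the same array (x axis, log2), 1 point per array. KCNIP4 and DPP10 were lower on arrays of higher background, with r of -0.721 and -0.802, and for KCNIP3 r was 0.458 within HR and 0.498 within LR.

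Genes that work with the complex were read from lists, by the brightest probe set of each gene. In limma 0 genes of the 6 lists had an adjusted p under 0.05, against 0.00971% of 10299 genes tested, and the shares at an unadjusted p under 0.05 are to be read against 29.5% of those genes. With the background covariate 0 genes of these lists had an unadjusted p under 0.05. Of the neuronal calcium sensors, the protein family to which KCNIP subunits belong, 6 of 10 were tested and 2 had an unadjusted p under 0.05, both lower in HR. HPCAL4, a hippocalcin relative, ranged from 9.91 over 10.2 to 10.6 in HR and from 10.3 over 10.4 to 10.5 in LR. Its difference was -0.20 ± 0.07 (SE) at a limma adjusted p of 0.157. VSNL1, a visinin-like sensor also used as a neuron marker, gave -0.27 ± 0.11 (SE) at a limma adjusted p of 0.161, and NCS1, which can itself bind KCND channels, gave 0.10, or 0.05 without LR replicate 3. Fitted together with background, HPCAL4 gave -0.11, VSNL1 -0.10 and NCS1 0.01. The list's median difference was -0.02, against 0.05 over all genes tested.

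The subunits of other inactivating potassium channels were both higher in mean in HR. Here 2 of 6 listed genes were tested and both had an unadjusted p under 0.05. KCNAB2, a cytosolic beta subunit of another potassium channel family, ranged from 11.7 over 11.8 to 12.2 in HR and from 11.003 over 11.6 to 11.8 in LR, with a difference of 0.23 ± 0.09 (SE) at a limma adjusted p of 0.157. KCNC4, a pore subunit with fast inactivation, gave 0.23 ± 0.10 (SE) at a limma adjusted p of 0.166. All 10 HR animals lay above the LR median for both. With the background covariate they gave 0.14 and 0.09.

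Known partners and targets of KCNIP3 did not pass. Of the partners, 4 of 6 were tested and 1 had an unadjusted p under 0.05, the transcription factor gene CREB1 at -0.26 ± 0.12 (SE), with ATF6 at -0.39 and the presenilin gene PSEN2 at 0.12 and a list median of -0.11. Without LR replicate 3 the count was 0, with CREB1 at -0.17, ATF6 at -0.25, PSEN2 at 0.08 and a median of -0.06. With the background covariate CREB1 gave -0.07 and PSEN2 0.004, while ATF6 turned to 0.02 and the median to 0.01. Of the target genes, 5 of 7 were tested, 5 were higher in mean in HR and 0 had an unadjusted p under 0.05. Among them were the cell death gene HRK at 0.20, NR4A1 at 0.26 and FOS at 0.11, with a list median of 0.11. With the background covariate 3 were higher and 2 lower in mean in HR, with HRK at 0.02, NR4A1 at 0.15 and FOS at 0.04, while PDYN, the prodynorphin gene, turned to -0.04 (0.09 without the covariate) and SLC8A3, a sodium-calcium exchanger gene, to -0.01 (0.01 without it). When LR replicate 3 was left out, PDYN gave 0.05 and SLC8A3 turned to -0.02. PDYN and SLC8A3 were named here after their values were seen. Of regulators that anchor or modify KCND channels, 7 of 15 listed symbols were tested and 0 had an unadjusted limma p under 0.05. The list held KCNE5 also under its older symbol KCNE1L. Differences were -0.27 for the scaffold gene DLG1, 0.17 for the actin crosslinker gene FLNA and -0.37 for the kinase subunit gene PRKACB, with a list median of -0.04. Without LR replicate 3 these were -0.13 for DLG1, 0.10 for FLNA and -0.20 for PRKACB, and the median turned to 0.01. Background as a covariate gave -0.02 for DLG1 and 0.06 for FLNA, and PRKACB turned to 0.02. Of the peptidase relatives of DPP6 and DPP10, 3 of 4 were tested and 0 had an unadjusted p under 0.05, with DPP8 at -0.34, DPP9 at 0.12, DPP4 at 0.03 and a list median of 0.03. Without LR replicate 3 these were -0.18 for DPP8, 0.07 for DPP9 and 0.01 for DPP4, which was also the median. With the background covariate DPP8 gave -0.04 and DPP9 0.02, and DPP4, with the median, turned to -0.02.

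Genes whose pattern over the 20 arrays was most like that of KCNIP3 were sought by Pearson's r of the deviations from group means, over the brightest probe sets of 10298 other genes. The highest values were 0.821 for NLRX1, a mitochondrial protein of innate immunity, 0.793 for LRRN4CL, 0.784 for EGR4, an activity-induced transcription factor, 0.782 for TTYH2, a membrane protein, and 0.770 for CPA5, a carboxypeptidase. Their Spearman's rho lay between 0.627 for TTYH2 and CPA5 and 0.716 for NLRX1. Without the 2 arrays farthest in KCNIP3, r lay between 0.603 for CPA5 and 0.745 for EGR4. The r values were not computed with background removed or without LR replicate 3. NLRX1 and CPA5 lay near the filter of 5.19, with medians of 5.33 and 5.24 in HR and 5.23 and 5.18 in LR. No subunit of the complex came close, since DPP6 ranked 2738 of 10298 and DPP10 8466, and the median r over all genes was 0.185. These genes were picked as the highest of many values, so no test was made.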

How the data were processed

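Total RNA of 20 amygdala samples was hybridised to Affymetrix Snowball arrays, for which the submitters' processing notes name GCOS 1.1.1, and the authors deposited log2 probe set values. The methods name the robust multichip average, an algorithm that corrects background, quantile normalizes and condenses the probes of a set, and the detection filter named there is not applied in this table. Array values have no read depth, so the number of arrays limits the precision. Groups came from the labels, which give no batch, litter or sex, and replicate numbers follow accession order. P-values measure the spread between these animals.

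Probe sets were named through the platform annotation, which can be old, and all 9 symbols of the complex were found in RefSeq. The brightest probe set of a gene over all 20 arrays is its main one. After array controls (123) were left out, the 23828 probe sets with a mean of at least the table median (5.19) were tested, among them 18 of the 22 described here. HR minus LR was fitted in R 4.3.3 by lmFit and eBayes of limma 3.58.1, with 2-sided tests, no covariates and Benjamini-Hochberg adjustment over all of them at a threshold of 0.05. The fit was tested on simulated data. Correlations used permutation tests (2-sided, 100000 resamples, within groups for deviations from group means) in numpy 2.4.6, adjusted over their family. Genes named were the 9 members, up to 3 genes of smallest p in each list and the 5 genes most like KCNIP3. The members and lists were chosen with earlier results of these data known. Alternatives were another filter, normalization, variance model, array weights, covariates and arrays left out. Leaving out the 4 arrays of lowest correlation was added later. No sequence was used here.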

Additional observations from a re-analysis of the deposited data

Results flagged for a closer look

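Single arrays far from the rest of their group were sought for each of the 22 probe sets in HR and in LR by Dixon's 95% criterion, which sets the gap to the nearest array against the whole range. This marked 12 of the 44 sets of values, and LR replicate 3 was the array in 11 cases. About 2.2 would be marked by chance if the sets were independent, but they share their arrays. The share over the whole array was not counted, so this count is not read as a trait of these genes. That array was low for KCNIP2 on all 3 probe sets, at 9.07 (other LR arrays from 9.35), 8.14 (from 8.66) and 7.70 (from 8.24), and for the second DPP6 probe set, at 8.81 (from 9.11). It was high for KCND2 on all 4 probe sets, at 8.78 (other LR arrays up to 8.27), 8.31 (up to 8.02), 5.12 (up to 3.90) and 4.61 (up to 3.85). It was also high for DPP10 on 3 of 4 probe sets, at 9.08 (up to 8.12), 5.57 (up to 4.85) and 2.97 (up to 1.90). The KCND2 probe sets at 5.12 and 4.61 lay below the background mean on all other arrays, and the DPP10 probe set at 2.97 on every array. The remaining array was HR replicate 9, at 9.06 for the brightest KCNIP2 probe set, where the other HR arrays began at 9.28. KCNIP1, KCNIP3, KCNIP4, KCND1 and KCND3 had no such array in either group.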

How the results depend on the processing

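No test is given for KCNIP3. In limma 0 probe sets of the other 8 genes and 0 genes of the 6 lists passed an adjusted p of 0.05 under every alternative run. The count of these probe sets at an unadjusted p under 0.05, which was 2, became 1 with array weights, 0 with the background covariate, 0 with the animal number covariate and 1 without the 4 arrays of lowest correlation, and it lay between 1 and 4 when single arrays were left out (4 without LR replicate 6, 1 without LR replicate 8 or HR replicate 6). For KCNIP3 the difference was 0.44 to 0.54 over the single arrays left out. It was 0.36 with the animal number covariate, 0.40 with the background covariate and 0.40 without the 4 arrays of lowest correlation. As KCNIP3 was selected on this difference in these arrays, its unchanged direction is a description and no test. KCND3 turned to 0.0177 with array weights, 0.0566 with the background covariate and 0.0630 without the 4 arrays, DPP10 to 0.00595 with the background covariate, and KCNIP2 to 0.10 as the median of its probe sets. Pairs past the adjusted threshold for Pearson's r numbered 9 over all arrays, 0 without LR replicate 3 and 6 with background removed. With background removed r became 0.0368 for KCNIP3 with KCNIP4 and 0.0536 with KCND3. Genes other than KCNIP3 that followed background by Pearson's r, 6 over all arrays, numbered 0 within HR, 4 within LR, 2 without LR replicate 3 and 2 without the 2 arrays farthest in background. For KCNIP2 that r was -0.249 within HR, -0.179 without LR replicate 3 and -0.274 without those 2 arrays, and for DPP6 -0.197, -0.0874 and -0.119. The causes were not tested. No paired analysis was possible because the labels give no replicate numbers shared by HR and LR animals.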
